A study of Mus musculus with 4 samples.

Results

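The genes of cholesterol and fatty acid synthesis were described in regulatory T cells (Tregs) of the young mouse liver. Their 32 members are the genes of a list of symbols, 5 regulators of the SREBP transcription factors, 17 enzymes of the sterol branch and 10 of the fatty acid branch, and all 32 were among the 24452 genes of the deposited table, which writes symbols in capitals (SREBF2, HMGCS1, SC5D, FASN, ELOVL6) where the mouse form is used here. Of these, 31 passed the filter on low values and entered the test, and the desaturase gene Fads2 did not. Tregs, which are CD4 T cells with the transcription factor Foxp3, hold back immune responses. The cells came from livers of young mice, either wild type (Altre-WT) or with the Treg long non-coding RNA Altre knocked out (Altre-KO), and each genotype had 2 RNA-sequencing libraries. The way Altre was deleted, the strain and sex of the mice and any pooling of animals are not stated in the labels. The question is what the loss of Altre does to transcript levels in these cells. Altre itself was not analysed here, and genotypes are as labelled.

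Cells build cholesterol from acetyl-CoA through the mevalonate pathway, whose intermediates also serve to prenylate small GTPases, and build fatty acids from the same precursor through malonyl-CoA. Both branches are controlled by the SREBP transcription factors, which are held in the endoplasmic reticulum with the escort protein Scap and the Insig retention proteins while sterols are plentiful, and are released by proteolysis when sterols fall. In T cells this programme is known to be switched on with activation and growth, and in Tregs the mevalonate pathway is known to be needed for suppressive function.

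CPM is the unit of level, scaled so that every library has an equal sum over its listed genes. The libraries held an estimated 1828773 and 2378954 reads on listed genes in wild type and 3266132 and 2361928 in knockout, so that 1 read was worth between 0.306 and 0.547 CPM. These reads were 18.8% and 20.6% of the whole library in wild type and 32.8% and 21.5% in knockout, and knockout replicate 1 stood apart with the largest share. All 7 Treg markers were above 0 in the 4 libraries. Their summed level of 2740 to 2842 CPM was made up in large part by Ikzf2 (1226 to 1272 CPM), and single markers differed between libraries. Foxp3 was at 160 and 140 CPM in the wild-type pair and at 79.5 and 162 CPM in the knockout pair, and Cd3e, a part of the T cell receptor complex, was at 90.8 and 68.5 CPM against 53.9 and 84.3 CPM, both lowest in knockout replicate 1. Of the 8 markers of hepatocytes, which make lipid-synthesis transcripts in the same organ, Alb, Apoa2, Ttr, Fabp1 and Cyp3a11 were listed at 0 in all 4 libraries, and the sum of all 8 was at most 1.69 CPM. The table does not tell a gene without reads from a gene that was not counted, and both would be listed at 0. The 8 markers of Kupffer cells and macrophages summed to 178 and 285 CPM in the wild-type pair and to 285 and 160 CPM in the knockout pair, with Vsig4 at 0 in all 4. Lyz2 was their largest part (66.1 to 165 CPM). The 5 liver endothelial markers summed to 175 to 221 CPM, mostly Pecam1 (172 to 215 CPM). Sums were 27.5 to 38.3 CPM for B cell markers, 5.04 to 15.9 for NK cell, 5.08 to 9.25 for CD8 T cell and 1.26 to 10.4 for stellate cell markers. Nothing in the labels tells separate mice from repeated libraries of 1 source, and p-values measure only the spread between these libraries, which may be technical.

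SREBPs act at promoters together with the factor NF-Y. Promoter sequences are shown for 5 of the 9 members for which both knockout libraries lay above both wild-type libraries, chosen after their values and letters were seen, so that a reader can compare a promoter with both elements, promoters with the NF-Y box alone and one with neither. The stretches are from RefSeq (GRCm38.p6), read 5′ to 3′ on the gene's strand, and end at or before the annotated start. Capitals mark the letters of a sterol regulatory element (SRE, TCACNCCAC) and of the NF-Y box (CCAAT, or ATTGG where it lies on the other strand).
Hmgcs1, chr13:119690151-119690350, plus strand: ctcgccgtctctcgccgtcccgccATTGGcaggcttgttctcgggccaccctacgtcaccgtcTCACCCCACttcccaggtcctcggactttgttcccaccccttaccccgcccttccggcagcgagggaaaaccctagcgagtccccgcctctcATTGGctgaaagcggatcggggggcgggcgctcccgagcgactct
Lss, chr10:76531405-76531587, plus strand: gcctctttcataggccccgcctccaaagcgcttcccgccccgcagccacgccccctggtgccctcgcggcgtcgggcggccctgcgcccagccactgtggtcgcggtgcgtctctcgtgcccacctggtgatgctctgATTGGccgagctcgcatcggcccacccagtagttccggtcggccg
Hsd17b7, chr1:169969242-169969405, minus strand: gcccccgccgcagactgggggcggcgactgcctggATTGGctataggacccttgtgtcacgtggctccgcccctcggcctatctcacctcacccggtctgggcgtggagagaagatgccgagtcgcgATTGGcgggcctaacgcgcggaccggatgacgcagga
Sc5d, chr9:42264301-42264500, minus strand: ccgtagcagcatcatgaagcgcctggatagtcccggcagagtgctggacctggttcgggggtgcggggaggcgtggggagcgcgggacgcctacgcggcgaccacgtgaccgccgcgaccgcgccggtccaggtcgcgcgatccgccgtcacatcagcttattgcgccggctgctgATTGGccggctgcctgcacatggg
Elovl6, chr3:129532186-129532354, plus strand: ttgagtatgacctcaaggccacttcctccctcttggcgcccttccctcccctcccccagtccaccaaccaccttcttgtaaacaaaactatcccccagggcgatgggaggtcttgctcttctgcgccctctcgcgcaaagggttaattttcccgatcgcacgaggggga
The Hmgcs1 stretch held both elements, with the SRE at positions -137 to -129 relative to the start and an NF-Y box on either side of it. Lss, Hsd17b7 and Sc5d held an NF-Y box and no SRE of these letters, and Elovl6 held neither. The windows of the other members of the 9, Cyp51, Msmo1, Elovl1 and Elovl5, each held an NF-Y box and no SRE of these letters.

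Across the family, 26 members had a promoter window of 250 bases before to 50 after a start, and Fdps, Fdft1, Sqle, Scd1, Scd2 and Fads1 had none. Letters were searched on both strands, and a gene was counted when any of its windows held a match. The NF-Y box occurred in 13 of the 14 sterol enzymes with a window (92.9%), in 4 of 5 regulators and in 4 of 7 fatty acid enzymes (57.1%). It occurred in 42.9% of the 8063 tested genes with a window and in 41.1% of all 27025 genes of the promoter table. The GC box (GGGCGG) occurred in 13 of 14 sterol enzymes and 3 of 7 fatty acid enzymes, against 69.9% of tested genes and 38.2% of all genes. The E-box (CACGTG), to which SREBPs can also bind, occurred in 6 of 26 members (23.1%), against 12.4% of tested genes and 8.09% of all. The SRE letters were in the Hmgcs1 window alone (3.85% of 26, against 1.34% of tested genes and 1.44% of all). A shorter form of 8 letters (CACNCCAC), which overlaps the full one, was found in Hmgcs1, Acat2 and Insig1 (11.5%, against 7.62% and 7.12%). A match is a run of letters, and binding was not measured.

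Per length of merged exons, the 2 highest members belonged to the fatty acid branch. Merged exons join all annotated transcripts of a gene and can be longer than a single transcript (for Acaca, 17074 against 9513 bases). Levels per kilobase can thus be understated, unevenly between genes. On the scale of CPM per kilobase of merged exons (GENCODE M21), the highest member was Acly, ATP citrate lyase, which makes the cytosolic acetyl-CoA that feeds both branches, with a mean level of 68.9 over the 4 libraries (range 63.2 to 72.9). Elovl5, an elongase of polyunsaturated fatty acids, came next at 65.6 (60.7 to 70.2), and these 2 ranges overlapped. After a gap followed Srebf1, which encodes SREBP-1, at 25.4 (23.4 to 26.5), the desaturase gene Scd2 at 25.1 (22.8 to 29.0), the sterol isomerase gene Ebp at 24.4 (16.7 to 30.5), Insig1 at 23.7 (22.5 to 26.5), Srebf2 at 23.6 (17.9 to 27.9) and Fasn, fatty acid synthase, at 23.1 (19.7 to 25.3), none of which was separated from its neighbours in that order. Ebp was the sole sterol enzyme among the first 8, and the next was Cyp51, lanosterol demethylase, at 13.6 (8.79 to 15.6). At the low end were Acaca, acetyl-CoA carboxylase, at 1.43 (1.26 to 1.73) and Scd1, the liver-type stearoyl-CoA desaturase, at 1.01 (0.69 to 1.57). The Acaca transcript is 99.2% identical over 6118 of its 9513 bases to the processed pseudogene Gm5182. Whether this near copy affects the counted level of Acaca was not tested. Fads2, the delta-6 desaturase, was listed at 0 in all 4 libraries, which may mean no reads or no count, and its level is not compared with that of other members. Fads1, the delta-5 desaturase of the same gene cluster, was at 18.6 and 16.4 CPM in the wild-type pair and 17.2 and 17.8 CPM in the knockout pair. Scd2 exceeded Scd1 in every library, on the same scale and in CPM.

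**Figure D1:**
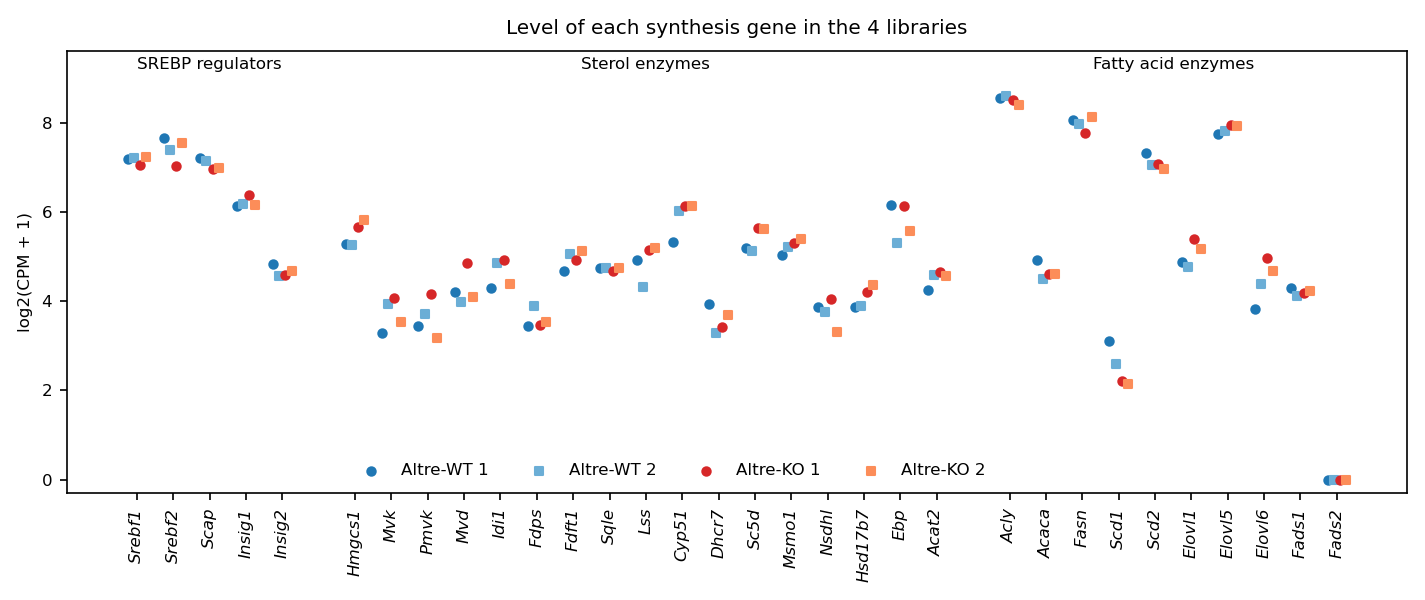
Level of each of the 32 genes, as log2(CPM + 1), in the 4 libraries (blue, wild type; red and orange, knockout; circles, replicate 1; squares, replicate 2), grouped by role. Acly, Fasn and Elovl5 are the highest in CPM, Fads2 is listed at 0, and most members show no separation of the genotypes.

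No member passed the test between genotypes. Among the 31 tested, 0 were called higher and 0 lower by limma at an adjusted p under 0.05, where 0% and 0.0381% of the 10486 genes tested were called, and the limma adjusted p was at least 0.999 for every member. The authors' deposited table gave all 32 an adjusted p of 1. Limma-voom on estimated reads also called 0 members. At an unadjusted p under 0.05, 1 member was higher (Elovl6) and 0 were lower, against 1.44% and 2.22% of all genes tested. The SE of the members' log2 fold changes ran from 0.15 to 0.58 (median 0.30). A log2 fold change is given as knockout less wild type after adding 1 to each CPM, which makes changes of low genes look smaller. In bulk RNA a change in the share of cells that carry a transcript and a change in its amount per cell cannot be told apart.

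No difference between the branches was tested, and each is described on its own. In the sterol branch, 13 of 17 enzymes had a log2 fold change above 0, with a median of 0.19 (range -0.16 to 0.55), against 47.9% of genes above 0 and a median of -0.01 over all genes tested. In the fatty acid branch 4 of 9 tested enzymes were above 0, with a median of -0.09 (range -0.68 to 0.72), and of the 5 regulators 1 was, with a median of -0.07. The summed level of the 17 sterol enzymes was 418 and 428 CPM in the wild-type pair and 531 and 483 CPM in the knockout pair, so the genotypes did not overlap and the ratio of means was 1.20. The summed level of the 10 fatty acid enzymes was 1110 and 1079 CPM in the wild-type pair and 1074 and 1079 CPM in the knockout pair, and the ratio was 0.98. The regulators summed to 589.5 and 546.5 CPM in the wild-type pair and to 489 and 554 CPM in the knockout pair, with the lowest value in knockout replicate 1.

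**Figure D2:**
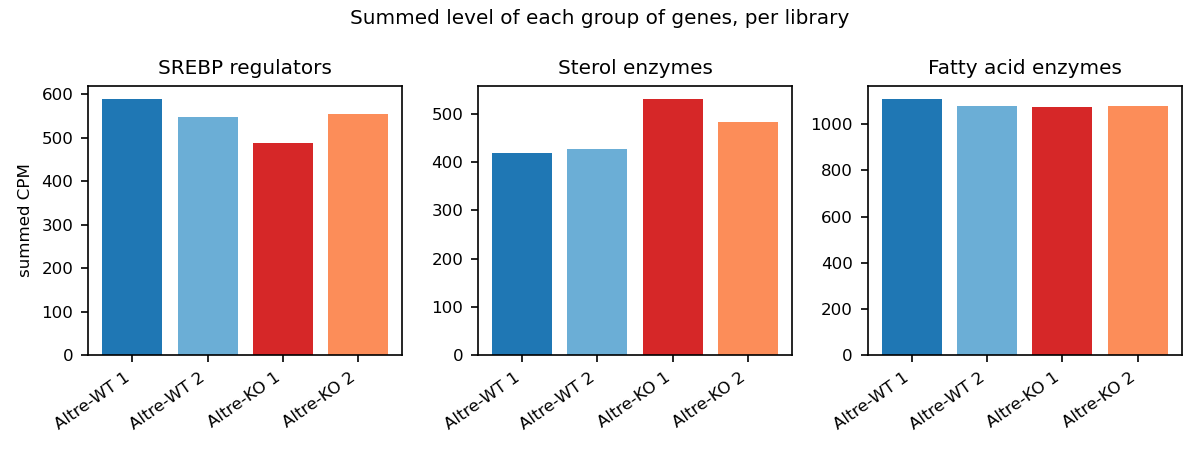
Summed CPM of the 5 regulators, 17 sterol enzymes and 10 fatty acid enzymes in each library (bars from 0, 1 bar per library, no error bar). Both knockout bars are above both wild-type bars for the sterol enzymes (531 and 483 against 418 and 428 CPM), and the fatty acid bars lie within 1074 to 1110 CPM.

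Both knockout libraries lay above both wild-type libraries for 9 of the 31 members and below both for 3, where 14.7% and 16.1% of all genes tested did so. In the sterol branch these numbers were 6 of 17 (35.3%) and 0, in the fatty acid branch 3 and 2 of 9, and among the regulators 0 and 1 of 5. Scd1, counted below, passed the low-value filter only through its wild-type libraries, so its place in these counts is no support for a difference. With knockout replicate 1 having the largest share of reads on listed genes, the library with the highest value was also counted. It was knockout replicate 1 for 7 sterol enzymes, knockout replicate 2 for 7, wild-type replicate 1 for 2 and wild-type replicate 2 for 1, whereas the shares over all genes tested were 30.7%, 19.1%, 25.4% and 24.8%.

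Of the regulators, Scap was the one whose genotypes did not overlap. Scap was at 147 and 141 CPM in the wild-type pair and at 123 and 125 CPM in the knockout pair (log2 fold change of -0.21, SE 0.17, 95% interval -0.56 to 0.14, limma adjusted p = 0.999). Srebf2, which encodes the SREBP that governs the sterol genes, was at 201 and 166 CPM in the wild-type pair and at 129 and 185 CPM in the knockout pair. Its log2 fold change of -0.24 (SE 0.18) rested on knockout replicate 1, the lowest of the 4, and was 0.02 without that library. Insig1, itself an SREBP target that closes the feedback loop, was at 69.5 and 71.5 CPM against 82.1 and 69.9 CPM, with replicate 2 of the knockout inside the wild-type range. Srebf1 was at 145 and 146 CPM in the wild-type pair and at 132 and 149 CPM in the knockout pair, and Insig2 between 22.7 and 27.3 CPM in the 4 libraries. For both, the knockout values lay on either side of, or within, the wild-type values.

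At the entry of the mevalonate pathway, Hmgcs1, the HMG-CoA synthase whose promoter holds the SRE shown above, was at 37.7 and 37.4 CPM in the wild-type pair and at 49.6 and 55.0 CPM in the knockout pair. The wild-type values lay close together and both knockout values above them, a difference of 1.38-fold (log2 fold change of 0.47, SE 0.24, 95% interval -0.03 to 0.96, limma adjusted p = 0.999). Hmgcs1 lies on chromosome 13 (119690379 to 119708260, GRCm38, GENCODE M21), and 557 of its exon bases overlap the antisense gene Gm48342, and whether the authors' counting used strand is not stated, so reads in the overlap could belong to either. Exons on the opposite strand also overlap those of Scap (985 bases, with 5830462I19Rik), Lss (381 bases, with 4930483K19Rik), Idi1 (323 bases, with Gm48574), Cyp51 (166 bases, with Akap9), Srebf1 (109 bases, with Rai1), Elovl1 (53 bases, with Cdc20) and Elovl6 (34 bases, with Gm35986), and the same limit holds for them. Fdps shares 1124 exon bases with the protein-coding gene Gm43738 on the same strand, where counting by strand would not separate the reads. Acat2, which makes acetoacetyl-CoA, was at 18.1 and 23.1 CPM against 24.3 and 22.6 CPM. Its estimated reads were fractional in 3 libraries, and its value is uncertain. The transcript of Acat2 is 98.7% identical over 445 bases to that of Tcp1, a chaperonin gene at 243 to 287 CPM, and 97.7% identical over 1477 bases to that of Acat3, at 0 to 4.04 CPM. Its log2 fold change of 0.19 was 0.02 without wild-type replicate 1 and 0.36 without wild-type replicate 2.

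The enzymes that turn mevalonate into farnesyl diphosphate overlapped between genotypes in every case. Mvd, the decarboxylase, was at 17.5 and 14.7 CPM in the wild-type pair and at 28.2 and 16.1 CPM in the knockout pair. Pmvk, the second kinase, was at 9.84 and 12.2 CPM against 16.8 and 8.04 CPM, and Mvk, the first, at 8.75 and 14.3 CPM against 15.9 and 10.6 CPM. In all 3, and in the isomerase gene Idi1 (18.6 and 28.2 CPM against 29.4 and 19.9 CPM), knockout replicate 1 was the highest of the 4 libraries and knockout replicate 2 lay within or below the wild-type range. Without knockout replicate 1 their log2 fold changes were 0.0035 for Mvd, -0.40 for Pmvk, -0.08 for Mvk and -0.19 for Idi1. Whether this library's larger share of reads on listed genes or its lower Foxp3 has a part in these values was not tested. Fdps, farnesyl diphosphate synthase, was at 9.84 and 13.9 CPM in the wild-type pair and at 10.1 and 10.6 CPM in the knockout pair. Several processed pseudogenes are over 95% identical to its transcript within aligned stretches of 605 to 1066 of its 1382 bases.

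Among the 3 enzymes from squalene synthesis to lanosterol, Lss was the one whose genotypes did not overlap. Fdft1, squalene synthase, was at 24.7 and 32.1 CPM against 29.2 and 33.7 CPM, but 774 of its exon bases lie opposite Ctsb, a cathepsin gene at 327 to 381 CPM, and its estimated reads were fractional in all 4 libraries. Sqle, squalene epoxidase, a slow step of the branch, was at 25.7 and 25.6 CPM in the wild-type pair and at 24.5 and 25.8 CPM in the knockout pair. The 4 values of Sqle lay close together, and the 95% interval of its log2 fold change ran from -0.65 to 0.59. Lss, lanosterol synthase, was at 29.5 and 18.9 CPM in the wild-type pair and at 34.6 and 35.6 CPM in the knockout pair (log2 fold change of 0.55, SE 0.30, 95% interval -0.07 to 1.17, limma adjusted p = 0.999). The wild-type libraries of Lss differed from each other by more than the knockout ones, and its log2 fold change was 0.86 without wild-type replicate 1 and 0.24 without wild-type replicate 2.

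Downstream of lanosterol, 4 of 7 member enzymes had both knockout libraries above both wild-type libraries, where 14.7% of all genes tested did. Lbr and Tm7sf2, of the list of other sterol steps described below, are not among these 7. Their log2 fold changes were 0.11 and -0.495. Cyp51 was at 38.8 and 63.9 CPM in the wild-type pair and at 68.9 and 69.0 CPM in the knockout pair (log2 fold change of 0.46, SE 0.24, limma adjusted p = 0.999). Wild-type replicate 2 was close to the knockout values, and the log2 fold change was 0.11 without wild-type replicate 1 and 0.81 without wild-type replicate 2. Sc5d, the C5 desaturase near the end of the pathway, was at 35.5 and 33.6 CPM in the wild-type pair and at 49.0 and 48.3 CPM in the knockout pair, 1.40-fold apart (log2 fold change of 0.48, SE 0.25, 95% interval -0.03 to 0.99, limma adjusted p = 0.999). For Sc5d both genotypes were tight, and leaving out any single library moved the log2 fold change between 0.44 and 0.52. Msmo1, the C4 methyl oxidase, was at 31.7 and 36.2 CPM against 38.3 and 41.1 CPM, and Hsd17b7, the 3-ketosteroid reductase, at 13.7 and 13.9 CPM against 17.5 and 19.5 CPM (log2 fold changes 0.22 and 0.40). That of Msmo1 was 0.13 without wild-type replicate 1. The remaining 3 overlapped. Ebp, the sterol isomerase, was high in replicate 1 of both genotypes, at 70.5 and 69.5 CPM in replicate 1 of wild type and knockout and at 38.7 and 46.6 CPM in replicate 2. Nsdhl, a sterol dehydrogenase, was at 13.7 and 12.6 CPM against 15.6 and 8.89 CPM, and Dhcr7, which makes cholesterol in the last step, at 14.2 and 8.83 CPM against 9.80 and 11.9 CPM.

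**Figure D3:**
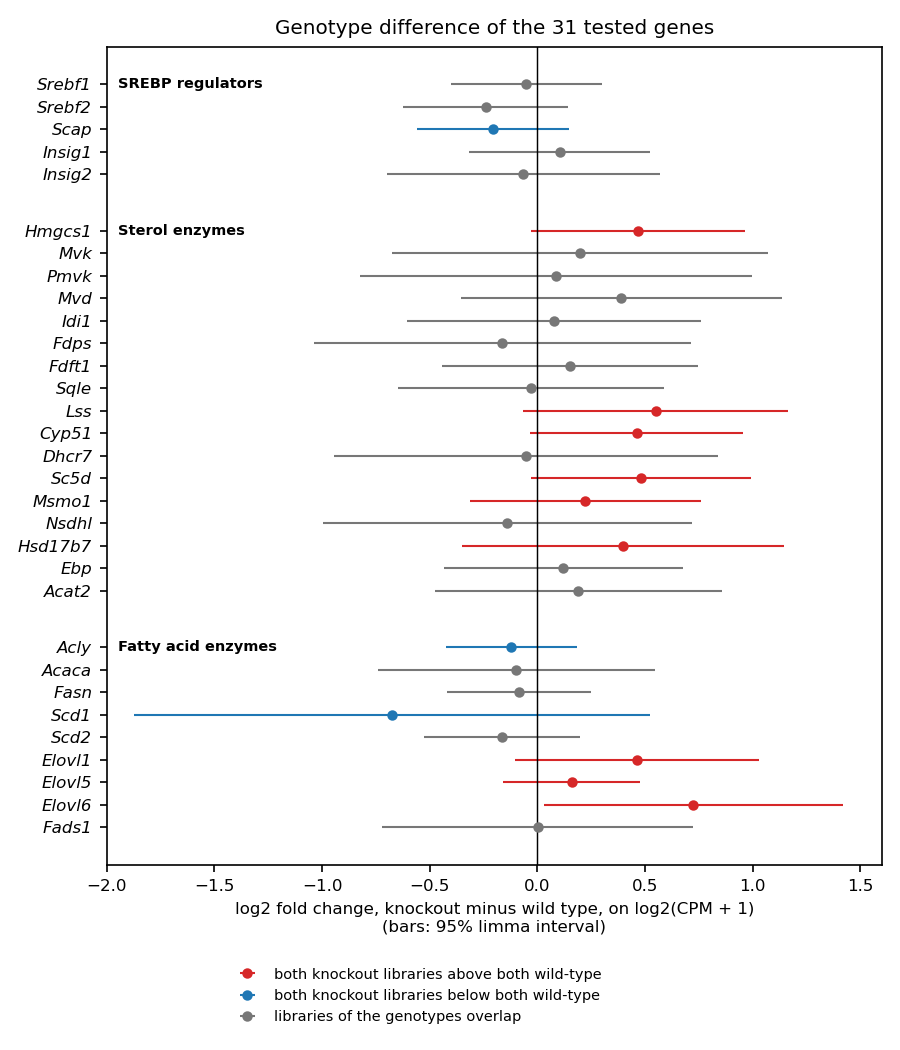
Log2 fold change of the 31 tested genes (points) with 95% limma intervals (bars), red where both knockout libraries lay above both wild-type libraries, blue where below, grey where the genotypes overlapped. All intervals except that of Elovl6 (0.03 to 1.42) include 0, and the 6 red sterol enzymes lie between 0.22 and 0.55.

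In the fatty acid branch the log2 fold changes of the first steps lay between -0.12 and -0.09 and those of the elongases between 0.16 and 0.72, and none passed the test. Acly was at 373 and 385 CPM in the wild-type pair and at 363 and 334 CPM in the knockout pair, both knockout libraries below, a log2 fold change of -0.12 (SE 0.15, 95% interval -0.43 to 0.18), which was -0.062 without knockout replicate 2. Acaca was at 29.5 and 21.4 CPM against 23.6 and 23.3 CPM, and Fasn at 267 and 251 CPM against 215 and 276 CPM, both overlapping. For Fasn, the 95% interval of the log2 fold change was -0.42 to 0.25.

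The 3 elongases among the members each had both knockout libraries above both wild-type libraries, as did 14.7% of all genes tested. The elongase genes Elovl7 and Elovl3, of the fatty acid partner list described below, went the other way. They did not pass the low-value filter and are named after their values were seen. Elovl7 was at 7.11 and 3.78 CPM in the wild-type pair and at 1.84 and 1.69 CPM in the knockout pair. Elovl3 was at 1.09 and 1.26 CPM against 0 and 0 CPM. Elovl6, which lengthens palmitate to stearate and is a known SREBP-1 target, was at 13.1 and 19.8 CPM in the wild-type pair and at 30.3 and 24.6 CPM in the knockout pair. It had the smallest p of the 31 members (unadjusted 0.0416) and a fold of 1.65 (log2 fold change of 0.72, SE 0.34, limma adjusted p = 0.999), on 24 and 47 estimated reads in wild type and 99 and 58 in knockout. Its log2 fold change was 0.45 without wild-type replicate 1 and 1.00 without wild-type replicate 2. Elovl6 lies on chromosome 3 (129532355 to 129638495), and the processed pseudogene Gm11295 shares 97.4% of 805 of its bases. Elovl1, which makes very long saturated chains, was at 28.4 and 26.1 CPM against 40.7 and 35.1 CPM (log2 fold change of 0.46, SE 0.27). Elovl5 was at 214 and 223 CPM against 247 and 240.1 CPM, a difference of 1.12-fold (log2 fold change of 0.16, SE 0.15).

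Of the 3 desaturases tested, Scd1 was the one whose genotypes did not overlap. Scd1 reached the 4.22 CPM asked by the low-value filter in the wild-type libraries alone. It was thus tested only through the genotype where it is high, and its separation is no support for a difference. Scd1 was at 7.66 and 5.04 CPM in the wild-type pair and at 3.67 and 3.39 CPM in the knockout pair, both knockout libraries below, but on 8 to 14 estimated reads per library (log2 fold change of -0.68, SE 0.58, 95% interval -1.88 to 0.52). Without wild-type replicate 1 the log2 fold change of Scd1 was -0.42. Scd2 was at 159 and 132 CPM against 133 and 124 CPM, overlapping, with a log2 fold change of -0.17 (SE 0.17), which was -0.03 without wild-type replicate 1 and -0.30 without wild-type replicate 2. The transcripts of Scd1 and Scd2 are 95.5% identical over 623 bases, and the estimated reads of both were whole in all 4 libraries. Fads1 had a log2 fold change of 0.00040, with a 95% interval of -0.72 to 0.72.

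With each library left out in turn, the median of the sterol enzymes ran from 0.07 without knockout replicate 1 to 0.35 without knockout replicate 2, and the number above 0 from 10 to 14 of 17. It was 0.11 without wild-type replicate 1 and 0.31 without wild-type replicate 2. The fatty acid median changed sign, at 0.09 without wild-type replicate 1 and 0.03 without knockout replicate 1. Of the 19 tested members whose genotypes overlapped, 16 changed sign in at least 1 alternative. The size of the sterol difference thus depended on which library stood for a genotype.

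**Figure D4:**
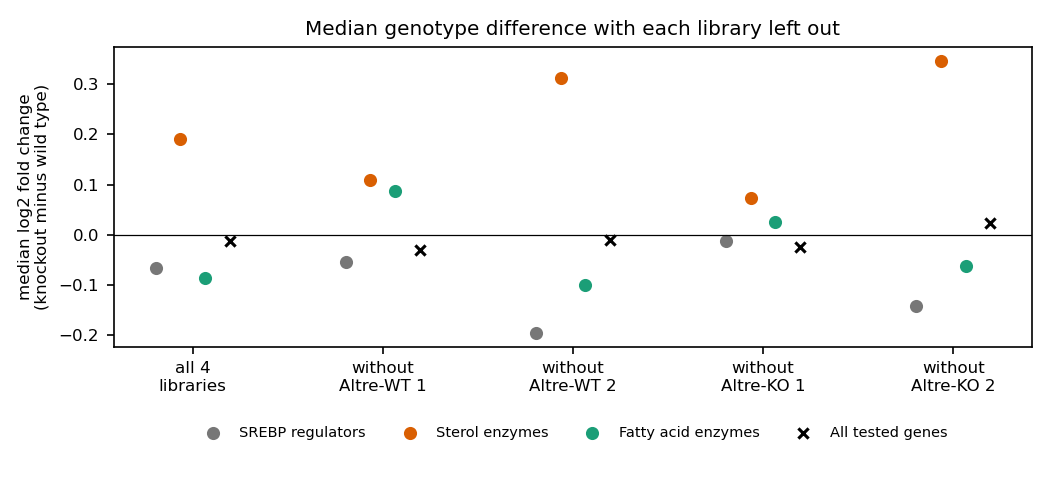
Median log2 fold change of the regulators, sterol enzymes, fatty acid enzymes and all tested genes, with all 4 libraries and with each left out. The sterol median runs from 0.07 to 0.35, and the fatty acid median lies on both sides of 0.

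Genes around the pathway were taken from 5 lists, and 0 of their tested members were called by limma in either direction. Both knockout libraries lay above both wild-type libraries for 2 of 9 tested genes of the sterol step list, 0 of 11 of the export list, 4 of 13 of the isoprenoid list, 3 of 13 of the fatty acid partner list and 4 of 14 of the cell cycle list, and below both for 2, 0, 2, 2 and 1, where 14.7% and 16.1% of all genes tested did so. Hacd2, a fatty acid partner counted below, passed the low-value filter of 4.22 CPM through its wild-type libraries alone. Aurkb, a cell cycle gene counted above, passed it through its knockout libraries alone. Their direction in these counts was thus set by the filter, and neither gene is support for a difference. Of the 9 tested genes described from the list of other sterol steps and SREBP activation, 2 had a log2 fold change above 0 (median -0.20). Among them Mbtps1, the site-1 protease that begins the release of SREBPs, was at 182 and 190.0 CPM in the wild-type pair and at 142 and 146 CPM in the knockout pair (log2 fold change of -0.37, SE 0.16, unadjusted p = 0.0345, limma adjusted p = 0.999). Both knockout libraries of Mbtps1 lay below both wild-type ones. Lbr, of the same list, and Mbtps2, the site-2 protease, had both knockout libraries above both wild-type ones. Lbr and Mbtps2 are named after their values were seen. Lbr was at 420 and 425 CPM in the wild-type pair and at 477 and 434 CPM in the knockout pair. Mbtps2 was at 4.92 and 12.2 CPM against 12.3 and 12.7 CPM. Genes of sterol export, storage and transport had 3 of 11 above 0 (median -0.04). The exporter gene Abca1 had a log2 fold change of -0.28 (SE 0.22), and Osbp, a sterol carrier, was at 90.8 and 93.3 CPM against 69.5 and 91.9 CPM.

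Genes that use isoprenoids had 7 of 13 above 0 (median 0.08). Rce1, the protease that trims prenylated proteins, was at 16.4 and 25.6 CPM in the wild-type pair and at 38.9 and 24.6 CPM in the knockout pair, and Zmpste24, a second such protease, at 84.2 and 68.5 CPM against 61.9 and 59.3 CPM. Partners of fatty acid synthesis had 6 of 13 above 0 (median -0.05). Mid1ip1, an activator of acetyl-CoA carboxylase, was at 18.1 and 23.1 CPM against 29.1 and 31.3 CPM (log2 fold change of 0.54, SE 0.31), and Acsl3, an acyl-CoA synthetase, at 20.1 and 12.0 CPM against 26.6 and 18.4 CPM. For Acsl3 the estimated reads were fractional in all 4 libraries, and its value is uncertain. Cell cycle genes, listed because dividing T cells are known to raise lipid synthesis, had 7 of 14 above 0 (median 0.03). Rrm2, a subunit of ribonucleotide reductase, was at 8.75 and 6.73 CPM in the wild-type pair and at 17.8 and 16.9 CPM in the knockout pair, and Kif11, a mitotic motor, at 28.4 and 11.8 CPM against 32.5 and 28.4 CPM. Their summed level was 599 and 519 CPM in the wild-type pair and 581 and 550.1 CPM in the knockout pair, and these sums overlapped, while single genes differed. Both knockout libraries lay above both wild-type libraries for Rrm2 (log2 fold change of 1.08, SE 0.41, unadjusted p = 0.0154, limma adjusted p = 0.999), Cdk1, Aurkb and Ccna2, and below both for Mki67. The last 4 are named after their values were seen, and all of these are markers or enzymes of dividing cells. Aurkb was at 2.73 and 1.68 CPM in the wild-type pair and at 4.59 and 4.66 CPM in the knockout pair. It passed the low-value filter only through the knockout libraries, so its separation is no support for a difference. The estimated reads of Ccna2 were fractional in all 4 libraries, and its value is uncertain. The part of cell division in the values of the synthesis genes was not tested.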

How the data were processed

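The submitters' processing notes name cutadapt, STAR, DESeq2 and the build mm10, without roles, versions, counter or annotation. The authors deposited RPM with an added 0.0001 (unit read from the values), CPM (per the file headers), and their own mean CPM, log2 fold change, p-value and adjusted p-value. Reads were estimated from the RPM steps: 93.2% to 93.9% of values were whole within 0.02 of a read, so no count test was used. Genes reaching 4.22 CPM (10 estimated reads at median depth) in at least 2 libraries, 10486, were tested with limma 3.58.1 in R 4.3.3 (trend, genotype only, log2(CPM + 1)), and p-values were Benjamini-Hochberg adjusted over all of them (threshold 0.05). The fit had 20.8 prior degrees of freedom, so SEs draw largely on the trend over all genes.

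Members, lists and tests were chosen with earlier results of these data known. Named genes are those past the test, those whose genotypes did not overlap, the 3 smallest p and the highest level per kilobase in each role group, and the 2 smallest p of each other list. A gene of the list of other sterol steps is not reported here, and that list's counts and median leave it out. Similar transcripts (at least 95% identity over 200 bases) were found with blastn 2.17.0. The limma script was tested on simulated data. Alternatives covered scaling, pseudocount, filter, limma-voom, replicate block, the authors' comparison and leaving out each library.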

Additional observations from a re-analysis of the deposited data

How the results depend on the processing

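No member passed an adjusted p of 0.05 under any alternative run (smallest 0.482). Scaling, pseudocount, filter, limma-voom and the replicate block left the sterol median between 0.15 and 0.21 and the fatty acid median between -0.09 and -0.07. Over all genes tested, 1 gene was called higher with the replicate block (0 without) and 2 lower with a pseudocount of 0.1 (4 with 1). The replicate numbers do not show a pairing (r of the replicate deviations across genes -0.010), and the block called 0 members. With median-of-ratios size factors the summed fatty acid enzymes were 1115 and 1069 CPM in the wild-type libraries and 1057 and 1102 CPM in the knockout libraries. Fads1 turned sign with a pseudocount of 5 (-1.87e-05) and in the authors' deposited table (-0.0021).

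With each library left out (the lone library of a genotype is then assumed to vary like the others), genes called higher ran from 0 to 11 and lower from 4 to 14. Medians ran from 0.072 to 0.35 for sterol enzymes, -0.10 to 0.086 for fatty acid enzymes, -0.20 to -0.012 for regulators (with 1 to 2 above 0) and 0.018 to 0.18 for all members. Members that turned sign had log2 fold changes of -0.32 to 0.12 (Acaca), -0.37 to 0.26 (Dhcr7), -0.30 to 0.55 (Ebp), -0.086 to 0.086 (Fads1), -0.27 to 0.094 (Fasn), -0.033 to 0.33 (Fdft1), -0.39 to 0.065 (Fdps), -0.21 to 0.36 (Idi1), -0.012 to 0.22 (Insig1), -0.20 to 0.062 (Insig2), -0.13 to 0.52 (Mvk), -0.51 to 0.23 (Nsdhl), -0.40 to 0.58 (Pmvk), -0.065 to 0.0086 (Sqle), -0.14 to 0.037 (Srebf1) and -0.50 to 0.018 (Srebf2). The cause was not tested. At 8 to 14 estimated reads, Scd1 is limited by depth.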
